A study of Mus musculus with 10 samples.

Results

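Receptors for noradrenaline, acetylcholine and adenosine, and the RGS proteins that shorten their signals, were followed in the embryonic heart as a set of 9 genes. They were taken by name from the table of 23195 genes, 16973 of them protein coding, that compared both genotypes of the study. The set holds the receptors *Adrb1*, *Adra1a*, *Adra1b*, *Chrm2* and *Adora1* and the RGS genes *Rgs2*, *Rgs4*, *Rgs5* and *Rgs6*. The study prepared stranded polyA RNA-seq libraries of whole hearts at embryonic day 13.5 from 5 wild-type male embryos and 5 male embryos homozygous for the constitutive null allele tm1d of *Nos1ap*. The tm1d allele lacks exon 4 of *Nos1ap*, which encodes an adaptor of neuronal nitric oxide synthase, and the deletion is carried in every cell type. The labels give the strain as C57BL6/J for all embryos. The allele was made in C57BL/6N embryonic stem cells and backcrossed to C57BL/6J for at least 10 generations, so that the deletion and the neighbouring DNA inherited with it cannot be told apart.

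The autonomic nerves set the rate and force of the heartbeat through receptors coupled to G proteins. The beta-adrenergic receptor encoded by *Adrb1* raises cAMP through Gs, the alpha-adrenergic receptors encoded by *Adra1a* and *Adra1b* act through Gq on phospholipase C, and the muscarinic receptor encoded by *Chrm2* and the adenosine receptor encoded by *Adora1* act through Gi/o on adenylyl cyclase and on potassium channels of the GIRK class. RGS proteins speed up the hydrolysis of GTP by the activated alpha subunit and so end the signal. *Rgs2* acts best on Gq, *Rgs4* on Gi/o and Gq, *Rgs5* is widely used as a marker of pericytes, and *Rgs6* works together with *Gnb5* at muscarinic signals of the atria and the sinus node.

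The promoters of the 4 RGS members are shown because these genes gave the largest differences of the set in both directions among members with a mean of at least 10, and because *Rgs4* and *Rgs5* are neighbours on the chromosome that carries *Nos1ap*. Each is the RefSeq sequence on GRCm38.p6 from 250 bases before the transcript start to 50 bases after it, written 5′ to 3′ on the strand of the gene. They lie at chr1:144004100-144004399 (minus strand) for *Rgs2*, chr1:169747593-169747892 (minus) for *Rgs4*, chr1:169655251-169655550 (plus) for *Rgs5* and chr12:82617249-82617548 (plus) for *Rgs6*. The *Rgs6* window lies inside the annotated gene, which starts at 82588292, and the sequence at that start was not examined. Capitals mark matches on either strand to TGACG, the core of the cAMP response element, to the TATA box TATAAA, or to AGATAA, which GATA factors bind.
Rgs2: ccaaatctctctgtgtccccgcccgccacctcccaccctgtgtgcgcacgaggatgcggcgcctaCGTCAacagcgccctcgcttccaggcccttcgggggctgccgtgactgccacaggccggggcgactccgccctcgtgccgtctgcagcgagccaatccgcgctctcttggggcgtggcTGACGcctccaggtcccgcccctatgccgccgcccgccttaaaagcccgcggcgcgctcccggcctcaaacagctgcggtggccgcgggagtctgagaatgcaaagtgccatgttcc
Rgs4: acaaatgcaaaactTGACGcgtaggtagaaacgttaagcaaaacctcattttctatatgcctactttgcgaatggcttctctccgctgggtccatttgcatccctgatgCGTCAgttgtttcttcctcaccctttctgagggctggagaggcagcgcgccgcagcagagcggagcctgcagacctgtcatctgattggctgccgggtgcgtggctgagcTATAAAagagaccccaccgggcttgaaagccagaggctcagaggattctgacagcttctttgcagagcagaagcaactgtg
Rgs5: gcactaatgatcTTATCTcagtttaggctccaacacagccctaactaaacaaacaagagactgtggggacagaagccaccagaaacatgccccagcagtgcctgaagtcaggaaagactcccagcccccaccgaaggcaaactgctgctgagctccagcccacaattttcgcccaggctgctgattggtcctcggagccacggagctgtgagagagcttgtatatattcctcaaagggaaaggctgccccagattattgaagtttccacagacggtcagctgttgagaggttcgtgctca
Rgs6: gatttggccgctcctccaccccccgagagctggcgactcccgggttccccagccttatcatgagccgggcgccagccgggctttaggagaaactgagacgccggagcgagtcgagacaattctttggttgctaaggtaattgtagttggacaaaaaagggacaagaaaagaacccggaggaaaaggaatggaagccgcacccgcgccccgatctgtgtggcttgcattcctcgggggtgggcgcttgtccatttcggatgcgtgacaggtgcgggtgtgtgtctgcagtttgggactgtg
TGACG occurred at -236 and -141 from the start of *Rgs4* and at -185 and -67 from that of *Rgs2*, against 1 or more matches in 20.8% of the 32851 promoters of the same length in the table. The *Rgs4* promoter also held TATAAA at -31, which is found in 13.6% of all promoters. The *Rgs5* promoter held AGATAA in the reverse direction at -238, as 11.2% of all promoters do in either direction. Neither the full palindrome TGACGTCA (1.79% of promoters), which would also count as a match to TGACG, nor the CArG box (1.63%) was found in any promoter of the members, and the *Rgs6* window held none of the motifs. The members other than *Adra1a* had a promoter in the table, and among the receptors there was 1 match, TGACG at -90 in *Adrb1*. A match describes the letters of the window and is not evidence of a bound factor.

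Each group had 5 libraries with an estimated 11328233 to 14023004 counts on genes. Values below are normalized counts, that is counts divided by the size factor of the library. Library counts were worked out from the deposited group means, and the libraries are numbered within each genotype by falling size factor, since the derived values carry no replicate label. *Nos1ap* itself was at 144 ± 14.4 (SD, n = 5) in wild-type and 39.8 ± 5.20 (SD, n = 5) in null libraries, a log2 fold change of -1.83 (limma, Benjamini-Hochberg adjusted p = 7.02e-09). Cardiomyocyte markers dominated the hearts, with a summed mean of 302370 in wild-type and 307750 in null libraries over 8 genes. Wild-type library 3 stood apart. Its sum of 8 autonomic neuron markers was 1663, against 95.2 to 117 in the other wild-type libraries and 90.5 to 112 in the null libraries, and its sum of 6 Schwann cell precursor markers was 803, against 344 to 424 and 332 to 385. Values without this library are given below for the differences that turn on it.

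None of the members passed the thresholds of the study, an adjusted p under 0.01 with an absolute log2 fold change over 1. Over all 10290 protein-coding genes tested with limma, 3 passed (0.0292%), and the same 3 genes were counted at an adjusted p under 0.05 without a fold threshold (0.0292%). Of the 9 members, 7 could be tested. *Adra1a* was left out for a mean under 10 and *Rgs5* because its library counts could not be settled. At an unadjusted p under 0.05 there were 2 of the 7, *Rgs6* with a higher and *Rgs4* with a lower level in null hearts, where 3.55% of all tested genes (365) reached this level, 1.70% with a higher and 1.85% with a lower level in null hearts. The adjusted p was 0.998 for each of the 7 members. In none did the libraries of both genotypes separate completely, as they did in 0.787% of all tested genes. The median log2 fold change of the 7 was -0.05, beside -0.0045 for all genes tested. In whole hearts, fewer cells of a type and less RNA per cell cannot be told apart, and p-values measure the spread between the embryos sampled.

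**Figure D1:**
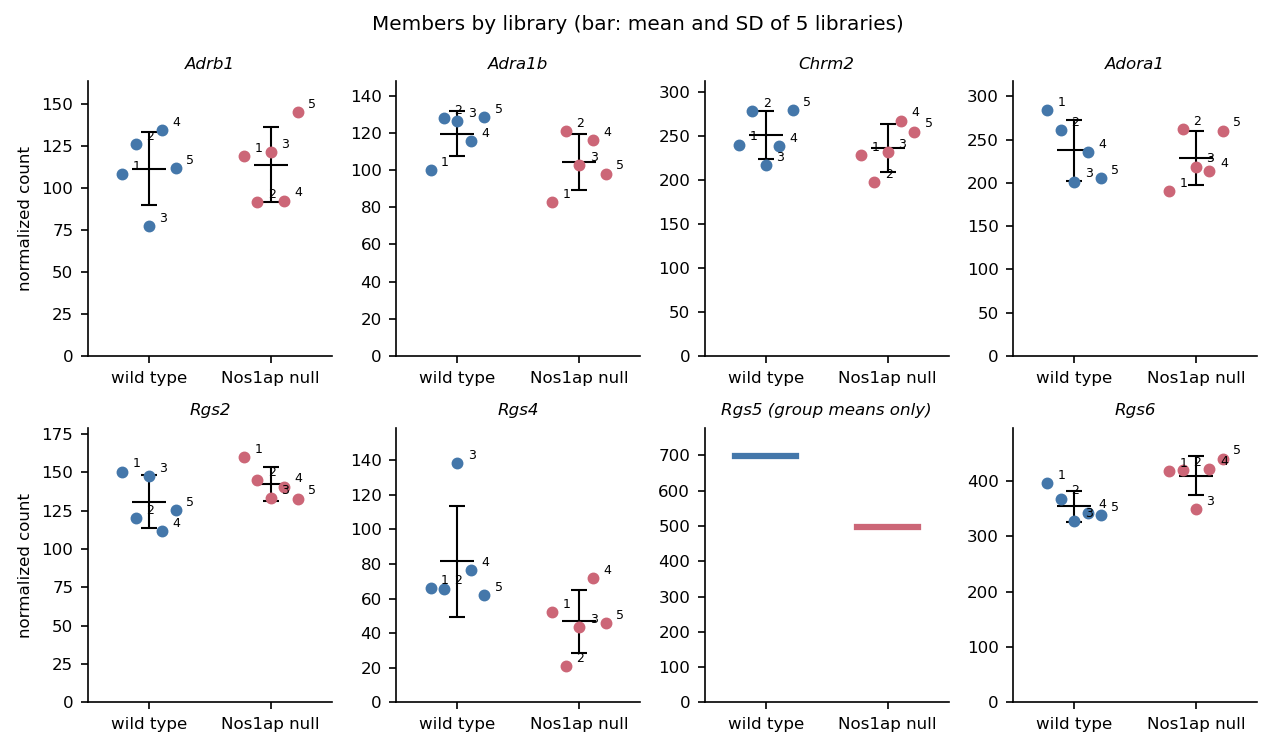
Normalized count (vertical axis, from 0) of 8 members in each library of both genotypes; points are libraries with their numbers, bars the mean and SD of 5 libraries, and thick lines the authors' group means of Rgs5, for which no library values were derived. The null libraries span 21.1 to 71.9 for Rgs4 and 349 to 440 for Rgs6, the wild-type libraries 62.1 to 138 and 327 to 396, and the receptors overlap broadly.

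*Adrb1*, the main beta-adrenergic receptor of cardiomyocytes (chromosome 19, 56722199 to 56733113, plus strand), was at 108, 126, 77.4, 134 and 112 in wild-type libraries 1 to 5 and at 119, 91.5, 121, 92.4 and 145 in null libraries 1 to 5. Library 3 was the lowest of the wild-type group, library 5 the highest of the null group, and the groups overlapped over nearly their whole range. The means were 111 ± 21.8 and 114 ± 22.3 (SD, n = 5 each), and the log2 fold change was 0.03 (SE 0.151, limma p = 0.836, exact two-sided permutation p = 0.873). An interval of 2 standard errors ran from -0.27 to 0.33. The sign rested on single libraries, since the value was -0.09 without wild-type library 3 and -0.06 without null library 5.

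*Adra1b*, an alpha-adrenergic receptor coupled to Gq (chromosome 11, 43774606 to 43901210, minus strand), was at 100, 128, 126, 116 and 128 in wild-type and at 82.8, 121, 103, 116 and 98.0 in null libraries. Of the null libraries, 2 lay below the lowest wild-type library and none above the highest. The means of 119.6 ± 12.1 and 104 ± 15.1 (SD, n = 5 each) gave a log2 fold change of -0.20 (SE 0.110, limma p = 0.0775, exact two-sided permutation p = 0.103), the largest difference among the receptors tested. It ranged from -0.27 to -0.13 when each library was left out in turn. Its unadjusted limma p was under 0.05 in 3 of these fits, without wild-type library 1 (limma p = 0.0267, exact permutation p = 0.0476), without null library 2 (0.0292 and 0.0635) and without null library 4 (0.0490 and 0.0873). The related *Adra1a* (chromosome 14, 66635251 to 66771168, plus strand) was barely detected. *Adra1a* had 2 counts in all wild-type and 4 in all null libraries, with no more than 2 in any library. The null group held 66.7% of these 6 counts (95% Clopper-Pearson interval 22.3% to 95.7%, counting error only), against 49.2% expected from the size factors, so that a difference in *Adra1a* was not detectable at this depth.

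*Chrm2*, the muscarinic receptor of the heart muscle (chromosome 6, 36388084 to 36528414, plus strand), was at 240, 278, 217, 238 and 279 in wild-type and at 229, 197, 232, 267 and 255 in null libraries. Null library 2 was the lowest of all, and the other 4 null libraries lay within the wild-type range. The means were 250.5 ± 27.2 and 236 ± 27.1 (SD, n = 5 each), with a log2 fold change of -0.09 (SE 0.0864, limma p = 0.327, exact two-sided permutation p = 0.421) and an interval of 2 standard errors from -0.26 to 0.09. It lay between -0.14 (without wild-type library 3) and -0.02 (without null library 2) when each library was left out in turn.

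*Adora1*, the adenosine receptor that slows the heart (chromosome 1, 134199223 to 134235431, minus strand), was at 284, 261, 202, 235 and 206 in wild-type and at 191, 262, 219, 214 and 260.3 in null libraries. High and low libraries occurred in both groups, and 4 of the 5 null libraries lay within the wild-type range. The means were 238 ± 35.3 and 229 ± 31.2 (SD, n = 5 each), with a log2 fold change of -0.05 (SE 0.105, limma p = 0.646, exact two-sided permutation p = 0.706). It had the opposite sign without wild-type library 1 (0.02) and without null library 1 (0.01).

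*Rgs2* (chromosome 1, 143999338 to 144004161, minus strand) was at 150.5, 120, 148, 112 and 125 in wild-type and at 160.2, 145, 133, 141 and 133 in null libraries. The null libraries lay in the upper part of the wild-type range, and 1 exceeded it. The means were 131 ± 17.3 and 142 ± 11.2 (SD, n = 5 each), with a log2 fold change of 0.13 (SE 0.0963, limma p = 0.206, exact two-sided permutation p = 0.230) and an interval of 2 standard errors from -0.07 to 0.32. With each library left out in turn it lay between 0.07 (without wild-type library 4) and 0.18 (without wild-type library 1).

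*Rgs6*, the RGS protein of the muscarinic and GIRK pathway (chromosome 12, 82588292 to 83162056, plus strand), was at 396, 368, 327, 343 and 337 in wild-type and at 417, 419, 349, 421 and 440 in null libraries. All null libraries but library 3 exceeded the highest wild-type library, while null library 3 lay in the middle of the wild-type group. The means were 354 ± 27.8 and 409 ± 35.0 (SD, n = 5 each), and the log2 fold change was 0.21 (SE 0.0676). The limma p was 0.00603 before adjustment and 0.998 after Benjamini-Hochberg adjustment, and the exact two-sided permutation p was 0.0317, where 252 arrangements allow no less than 0.00794. The fold change lay between 0.18 and 0.26 when each library was left out in turn, with an unadjusted limma p from 0.000536 to 0.0227. Leaving out null library 3, the only null library within the wild-type range, removes the overlap by construction (exact permutation p = 0.0159). Without wild-type library 3 the log2 fold change was 0.18 (limma p = 0.0173, exact permutation p = 0.0635).

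Genes that work beside *Rgs6* had smaller log2 fold changes. *Gnb5*, the beta subunit that stabilises RGS proteins of the R7 class, was at 227 and 236 (log2 fold change 0.05, SE 0.0680, exact permutation p = 0.349), and the membrane anchor *Rgs7bp* at 142 and 151 (0.10, SE 0.0947, p = 0.373). Of the GIRK subunits, *Kcnj5* was at 893 in wild-type and 974 in null libraries (log2 fold change 0.12, SE 0.0570, limma p = 0.0431 before and 0.998 after adjustment, exact permutation p = 0.119) and *Kcnj3* at 361 and 389 (0.11, SE 0.103, p = 0.405). The *Kcnj5* value was 0.09 without wild-type library 3 (limma p = 0.108, exact permutation p = 0.238). Of the 10 markers of the atria and the sinus node, where *Rgs6* is known to act, 4 were tested. Of these, 3 had an unadjusted limma p under 0.05, with an adjusted p of 0.998, where 3.55% of all genes tested reached this level. The other tested marker, *Tbx3*, had a log2 fold change of -0.02 (exact permutation p = 0.897). *Hcn4*, the pacemaker channel, had a log2 fold change of 0.15 (exact permutation p = 0.0238), *Sln*, an atrial regulator of the calcium pump, 0.37 (p = 0.0952), and *Isl1*, a transcription factor of the second heart field, the sinus node and autonomic neurons, -0.59 (p = 0.0238). Without wild-type library 3 they were 0.11 (exact permutation p = 0.0397), 0.30 (p = 0.127) and -0.37 (p = 0.0317), and *Isl1* alone had an unadjusted limma value under the threshold of 0.05. The sum of the 4 was between 730 and 888 in wild-type libraries and between 829 and 901 in null libraries, and the summed mean of all 10 was 14071 and 14679. The part of atrial and nodal tissue in the *Rgs6* difference was not tested.

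*Rgs4* (chromosome 1, 169741477 to 169747642, minus strand) was at 66.1, 65.8, 138, 76.4 and 62.1 in wild-type and at 52.2, 21.1, 43.4, 71.9 and 45.7 in null libraries. All null libraries but library 4 lay below the lowest wild-type library. Wild-type library 3 was far above every other library, and null library 2 was the lowest. The means were 81.8 ± 32.1 and 46.9 ± 18.3 (SD, n = 5 each), and the log2 fold change was -0.82 (SE 0.323). The limma p was 0.0297 before and 0.998 after Benjamini-Hochberg adjustment, and the exact two-sided permutation p was 0.0317. The difference in *Rgs4* was the largest among the members tested and had the widest error.

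Without wild-type library 3, the wild-type mean of *Rgs4* was 67.6 ± 6.13 (SD, n = 4), with a log2 fold change of -0.61 (limma p = 0.0434, exact permutation p = 0.0714). Null library 4 was the only null library within the wild-type range, so leaving it out removes the overlap by construction. The value was then -0.997 (limma p = 0.00661, exact permutation p = 0.00794), and without null library 2 it was -0.57 (limma p = 0.0260, exact permutation p = 0.0635). Without null library 3, *Rgs4* no longer passed the unadjusted threshold in limma (p = 0.0521, exact permutation p = 0.0476). The direction was the same in each case, and the adjusted p was never under 0.838. Over the set, the unadjusted limma p was under 0.05 in 2 members without wild-type library 3, and in 3.29% of all genes tested in that fit, and none of the members had groups that did not overlap, as 1.35% of all genes then had.

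Some marker sums were high together with *Rgs4* in wild-type library 3. Besides its neuron and Schwann cell markers, the sum of the 4 pericyte and smooth muscle markers with library values was highest there, at 594. It was 393 to 505 in the other wild-type and 384 to 481 in the null libraries. Among these 4, the log2 fold change of *Myh11* went from -0.70 to -0.30 without this library. Those of *Kcnj8* (-0.23 and -0.22) and *Anpep* (-0.01 and -0.02) hardly changed, and *Vtn* was near 0. The other 7 genes of the list in the table had no library values. The part of these cells in the level of *Rgs4* in that library was not tested. In the other 4 wild-type libraries *Rgs4* ranged from 62.1 to 76.4, while neuron markers there were at the level of the null libraries.

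**Figure D2:**
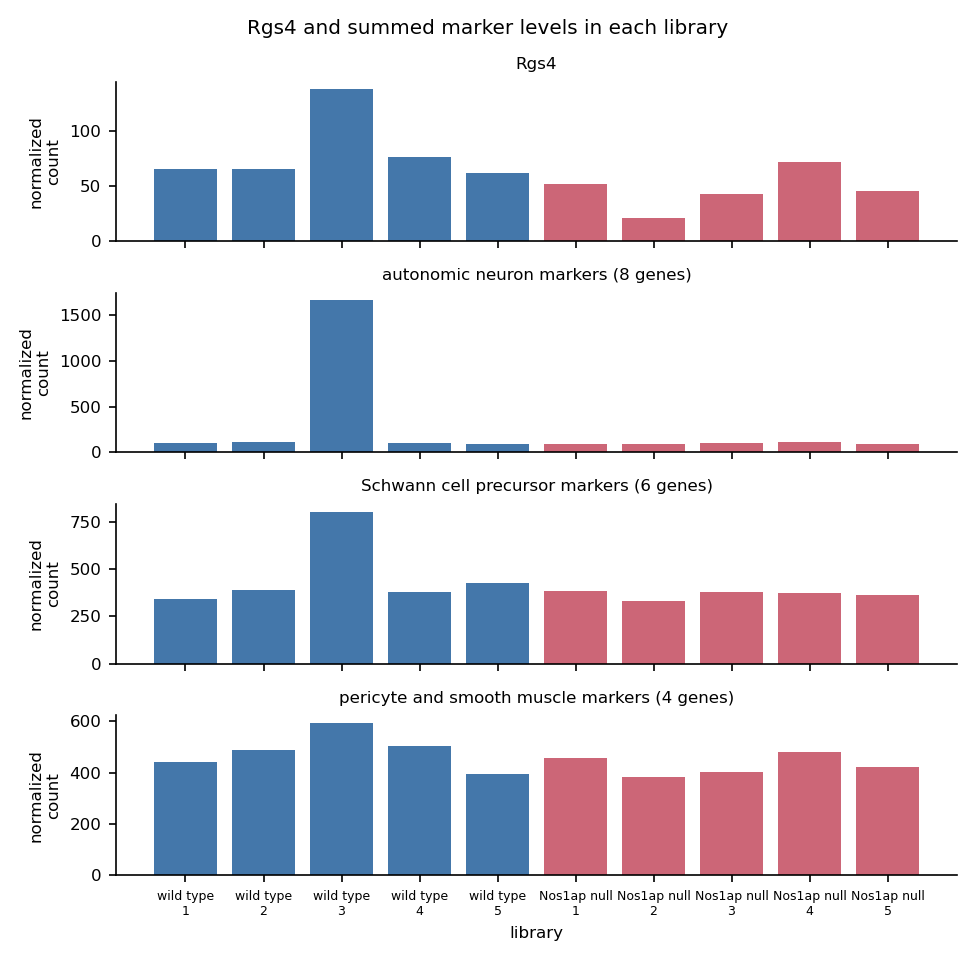
Normalized count (vertical axes, from 0) of Rgs4 and summed normalized counts of 3 marker lists in each of the 10 libraries; blue bars are wild-type and red bars null libraries. Wild-type library 3 has the highest bar in all 4 panels, with 138 for Rgs4 and 1663 for the neuron markers, while the other 9 libraries hold similar neuron marker levels.

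*Rgs5* (chromosome 1, 169655501 to 169695813, plus strand) had the highest level of the set, with authors' means of 697 in wild-type and 496 in null libraries, a ratio of 0.711 and a log2 ratio of -0.49. The search settled on no set of library counts at these means, so that no library values or test can be given. Any counts that yield the *Rgs5* means spread widely. The SD over 5 libraries was at least 149 in the wild-type group (21.4% of the mean) and at least 175 in the null group (35.3%), so that the difference of -201 was at most 1.96 times its standard error, which was at least 103. Of the 2542 protein-coding genes with both means between 400 and 800, 94.2% could be settled and 147 could not. *Rgs5* was 1 of these 147, and its value without wild-type library 3 could not be given.

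Other genes of pericytes and vascular smooth muscle are given beside *Rgs5*. Of the 12 genes on the list (*Pdgfrb*, *Cspg4*, *Kcnj8*, *Abcc9*, *Notch3*, *Higd1b*, *Vtn*, *Anpep*, *Acta2*, *Tagln*, *Myh11* and *Cnn1*), 11 were in the table, with a summed mean of 23562 in wild-type and 22966 in null libraries. The receptor *Pdgfrb* was at 1087 and 1076, the proteoglycan *Cspg4* at 1602 and 1580, the channel subunit *Abcc9* at 1133 and 1229, and *Notch3* at 1095 and 1005. *Kcnj8* was at 68.8 and 57.4 (log2 fold change -0.23, exact permutation p = 0.270), and the smooth muscle myosin *Myh11* at 84.0 and 44.1 (-0.70, p = 0.206). The *Myh11* value was -0.30 without wild-type library 3 (exact permutation p = 0.389). *Vtn* was near 0, at 0.787 and 0.398. Most of these markers are also made by other cells of the embryonic heart, and the part of pericyte number in the difference of *Rgs5* was not tested.

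*Rgs5* and *Rgs4* lie 45.7 kb apart, on opposite strands with their 3′ ends facing each other. The nearer end of *Nos1ap* lies 555.0 kb from *Rgs4* and 606.9 kb from *Rgs5*. Of the genes between *Rgs4* and *Nos1ap*, 4 are protein coding and had a mean of at least 10, namely *Ddr2*, *Hsd17b7*, *Uap1* and *Uhmk1*. Their log2 ratios of null to wild-type means were from -0.16 to 0.08, and none had a limma p under 0.05. *Gm7694*, which overlaps the 3′ end of *Nos1ap*, is not among these 4. It was lower in null hearts, with a log2 fold change of -1.35 (limma, adjusted p = 9.82e-11), and passed the thresholds of the study. *Adora1* and *Rgs2* are on the same chromosome but 36.07 Mb and 26.3 Mb from *Nos1ap*.

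**Figure D3:**
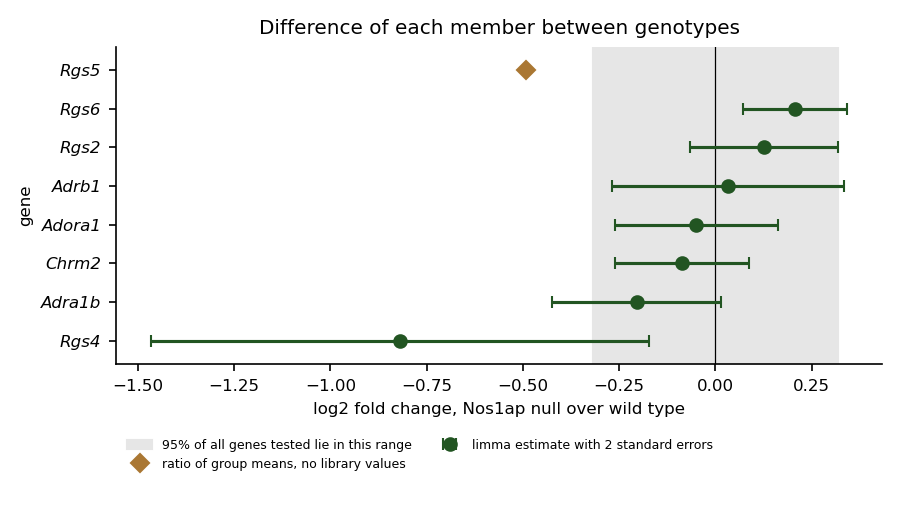
Log2 fold change of null over wild type (horizontal axis) for each member except Adra1a; circles are limma estimates with bars of 2 standard errors, the diamond is the ratio of the authors' group means of Rgs5, and the grey band holds 95% of all genes tested (up to 0.318 in either direction). Of the limma estimates, only that of Rgs4 (-0.82) lies outside the band, and only the bars of Rgs4 and Rgs6 leave out 0. The Rgs5 ratio (-0.49) is not a limma estimate, and Rgs5 is not among the genes of the band, so its place beside the band is not a like comparison.

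Per kilobase of exon, the scale on which genes can be compared, *Rgs5* stood first with 153 normalized counts in wild-type and 109 in null hearts. The next 6 genes of the wild-type hearts followed closely, with *Chrm2* at 41.4 ± 4.50, *Adora1* at 41.1 ± 6.11, *Rgs2* at 36.1 ± 4.76, *Adra1b* at 35.4 ± 3.57, *Rgs6* at 35.3 ± 2.77 and *Adrb1* at 32.9 ± 6.44 per kb (SD, n = 5). Neighbours in this order differed by less than the larger of their SDs. *Rgs4* was lower, at 26.4 ± 10.4 per kb, and differed from *Adrb1* by less than its own SD. In null hearts the order below *Rgs5* was *Rgs6* (40.8 ± 3.49), *Adora1* (39.6 ± 5.39), *Rgs2* (39.2 ± 3.09), *Chrm2* (39.0 ± 4.47), *Adrb1* (33.6 ± 6.61), *Adra1b* (30.8 ± 4.45) and *Rgs4* (15.1 ± 5.90), where neighbours again differed by less than the larger SD except *Rgs4*. *Adra1a* was last in both, at 0.0433 and 0.0929 per kb. The length is the union of all annotated exons, which counts rarely used exons in full.

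**Figure D4:**
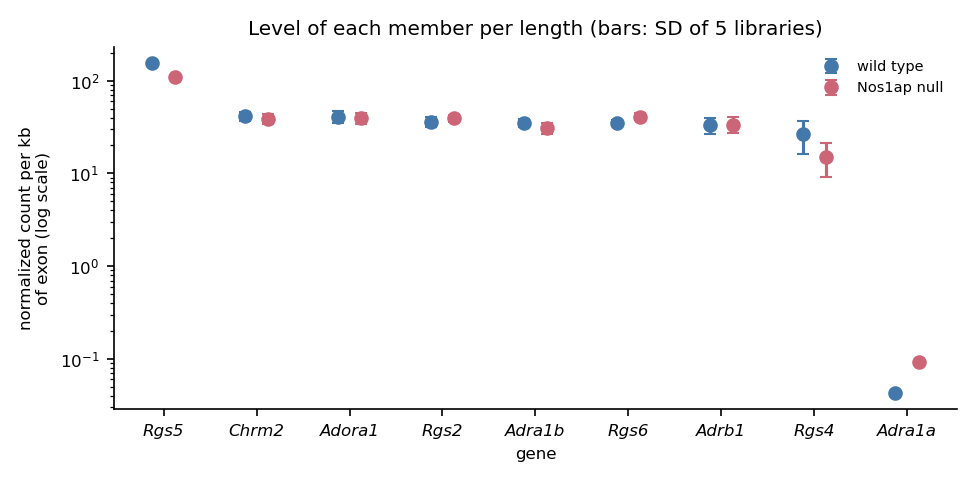
Normalized count per kb of exon (vertical axis, log scale) for the 9 members in both genotypes; points are group means and bars the SD of 5 libraries, drawn for genes with library values and a level over 1. Rgs5 lies above and Adra1a far below the other 7, which in wild-type hearts fall between 26.4 and 41.4 per kb.

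The members differed in how evenly they were expressed among embryos of a genotype. The coefficient of variation pooled over both genotypes was 40.6% for *Rgs4*, beside a median of 14.9% for the 669 tested genes of similar mean, and 42 of these varied more. For *Adrb1* it was 19.6% (median of similar genes 11.4%), for *Adora1* 14.3% (7.83%), for *Chrm2* 11.2% (7.71%) and for *Rgs6* 8.28% (6.56%). *Adra1b* at 12.2% and *Rgs2* at 10.7% were close to the medians of 11.4% and 10.1%. The spread of *Rgs4* includes wild-type library 3, and the lower bounds of *Rgs5* place it among the variable genes of the set as well.

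Likeness of pattern was measured over the 10 libraries as the root mean square gap between standardised values, among 8378 genes. The median gap was between 1.34 and 1.36 for every member compared. *Rgs5*, which has no library values, and *Adra1a*, whose mean was too low, were not compared. The nearest genes to *Rgs4* were *Ntrk2* (0.324) and *Cd248* (0.367). Nearest to *Rgs6* were *Rfx5* (0.426) and *Cmtm6* (0.440), to *Rgs2* *Bloc1s5* (0.452) and *Rpp30* (0.454), and to *Chrm2* *Gprc5b* (0.375) and *Zbtb41* (0.400). *Adora1* was closest to *Dbi* (0.394), *Adra1b* to *Dph7* (0.455) and *Adrb1* to *9330151L19Rik* (0.371). No member compared was among the nearest 2 genes of another, and the likeness of *Rgs5* to *Rgs4* could not be examined.

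The wider families around the members were counted in the same way. Of 125 pathway genes on 13 lists, 116 were not members, and of the 66 table entries of these that could be tested, 2 had an unadjusted limma p under 0.05 (3.03%, beside 3.55% of all genes). These were *Kcnj5* and the adenylyl cyclase gene *Adcy2*, which was at 36.0 ± 13.3 in wild-type and 24.5 ± 7.14 in null libraries (SD, n = 5 each; log2 fold change -0.51, SE 0.232, limma p = 0.0398, adjusted p = 0.998, exact permutation p = 0.0952). Without wild-type library 3, *Adcy2* had a log2 fold change of -0.33 (limma p = 0.143, exact permutation p = 0.190), and the only gene of the 66 with an unadjusted limma p under 0.05 was *Rgs8* (0.56, limma p = 0.0136, exact permutation p = 0.0238). The median log2 fold change of the 66 was 0.0079. None was called.

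Among the other receptors, *Adora2a* was at 126 and 125 (log2 fold change -0.02), *Adrb3* at 20.7 and 22.9 (0.15) and *Chrm3* at 21.9 and 20.1 (-0.18), and none of the adrenergic, muscarinic and adenosine receptors had a limma p under 0.05.

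Of 21 RGS family genes listed, 19 were in the table, 6 had a mean under 10, 3 had no library values (*Rgs5*, *Rgs3* and *Rgs12*), and 10 were tested. *Rgs16*, which like *Rgs4* is a small RGS protein of the R4 class, was at 74.5 ± 9.55 and 86.4 ± 4.12 (SD, n = 5 each; log2 fold change 0.22, SE 0.110, limma p = 0.0603, exact permutation p = 0.0397). *Rgs8* of the same class was at 23.5 and 30.98 (0.39, limma p = 0.0940, exact permutation p = 0.127). *Rgs19* was at 273 and 269 (-0.02), *Rgs10* at 69.5 and 70.9 (-0.01) and *Rgs11* at 77.8 and 71.3 (-0.12), while *Rgs3* and *Rgs12*, with authors' means of 1385 and 1335 and of 972 and 1016, had log2 ratios of -0.05 and 0.06. No member of the family was called.

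The values of some G proteins and effectors downstream follow. *Gnas*, the alpha subunit of Gs, had authors' means of 18117 and 18035, and *Gnai2*, the most abundant Gi subunit by count, 5750 and 5657. *Gnaq* was at 998 and 976 (log2 fold change -0.03, SE 0.0422, exact permutation p = 0.516). Among the adenylyl cyclases, *Adcy5* and *Adcy6*, the main cardiac forms, had authors' means of 1454 and 1481 and of 3987 and 3979. *Plcb3*, a phospholipase C driven by Gq, was at 729 and 682 (log2 fold change -0.09, exact permutation p = 0.159), and the receptor kinase *Grk5* at 357 and 359 (0.01, p = 0.881). The low *Gng3*, a gamma subunit, was at 36.2 ± 57.8 and 9.69 ± 3.61 (SD, n = 5 each; log2 fold change -0.84, SE 0.737, exact permutation p = 0.365), and its log2 fold change was -0.11 without wild-type library 3. The phosphodiesterases, the subunits and anchors of PKA, the phospholipase C and PKC genes and the receptor kinases and arrestins had no tested gene with a limma p under 0.05.

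**Figure D5:**
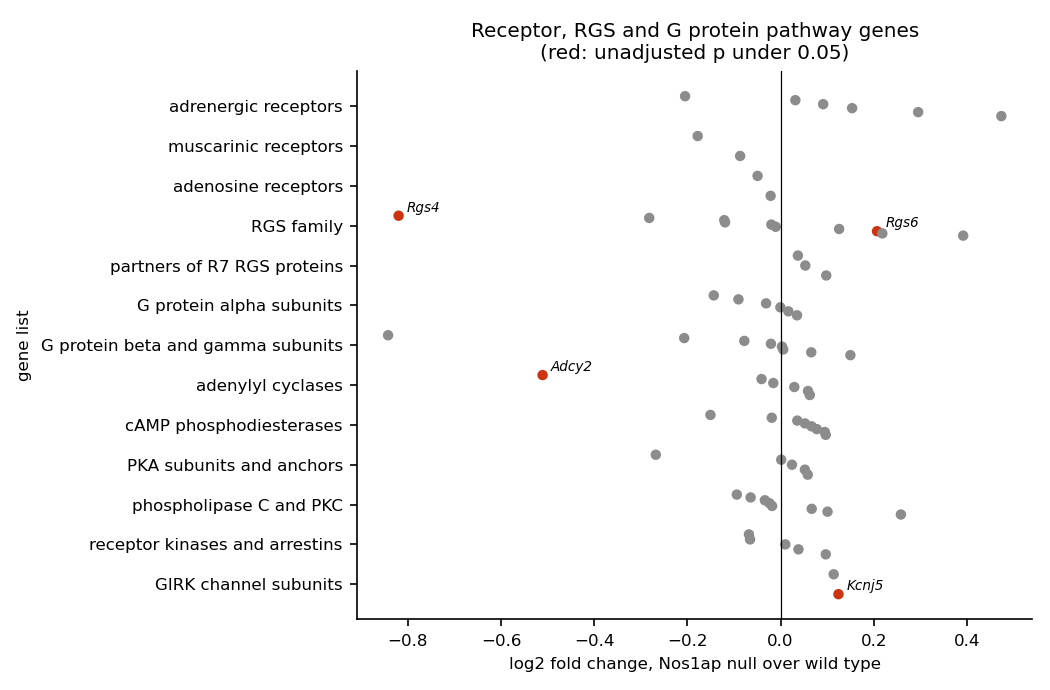
Log2 fold change of null over wild type (horizontal axis) of every tested gene on the 13 receptor, RGS and G protein pathway lists (rows); red points have an unadjusted limma p under 0.05, and the phosphodiesterase Pde2a, which has 2 entries of the same name in the table, is not drawn. The red points are Rgs4 (-0.82), Rgs6 (0.21), Adcy2 (-0.51) and Kcnj5 (0.12), and all other genes are grey.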

How the data were processed

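RNA was sequenced from E13.5 hearts of 5 wild-type and 5 *Nos1ap* null embryos, grouped by the genotype in the labels. The authors trimmed reads with Trimmomatic 0.36, estimated gene counts with RSEM 1.2.31 and STAR on GENCODE M10 transcripts (GRCm38), and compared genotypes with DESeq 1.24.0. The signal values they deposited are mean normalized counts of each genotype. The deposited fold changes, log2 fold changes and p-values were not used. Since a group mean is an average of 5 whole counts over size factors, library counts were recovered from it (98.8% of wild-type and 99.1% of null means under 1000). The set nearest to equal normalized counts was taken where at most 0.01 sets were expected so near by chance. It was not shown to be the only set possible. Under a mean of 200, a mean that failed this was settled if only 1 set was possible. Other means were left out. Recovery and test were tested on simulated data. Of the 13299 protein-coding genes whose mean reached 10, limma 3.58.1 in R 4.3.3 (trended, robust) compared the 10290 with library counts in both genotypes. It used log2(normalized count + 1), so that fold changes of low genes are understated, and Benjamini-Hochberg adjustment. The rest had a genotype mean of 1000 or more or unsettled counts. Shares, bands and medians over the tested genes leave them out. The search favours sets near equal libraries, so genes under 1000 that vary widely between libraries, such as *Rgs5*, are more often left out. How far this moves the shares, bands and medians was not tested. Single genes were also compared by an exact permutation test. Alternatives changed the pseudocount (0.5), weights, filter, scaling, gene types, moderation and threshold, or left out a library. Named genes are the members, list genes with an unadjusted p under 0.05, otherwise the most abundant of a list, genes between *Rgs4* and *Nos1ap*, and the nearest in pattern. *Gm7694* and further genes of the RGS family, receptors, G proteins, effectors and markers were named after their values were seen. Members and lists were chosen with earlier results of these data known. Positions are from GENCODE M21 (GRCm38).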

Additional observations from a re-analysis of the deposited data

Results flagged for a closer look

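Among 28 groups of 5 libraries examined by Dixon's test for a sample far from the others, 2 exceeded the critical value of 0.71, and chance flags about 1 in 20 groups. *Rgs4* in wild-type library 3 was at 138.4, with a gap to the next library of 0.813 of the range of the group. *Rgs6* in null library 3 was at 348.8, with a gap of 0.745 of the range, below the other null libraries. Wild-type library 3 is also the library with the high neuron and Schwann cell marker sums.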

How the results depend on the processing

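No member was called under any alternative, and 2 or 3 genes of the table were called when each library was left out in turn. The number of members with an unadjusted p under 0.05 was between 1 and 3 in these fits with *Adra1b* as the third where there were 3, the number with groups that did not overlap between 0 and 1, and the median log2 fold change of the members between -0.105 and 0.0175. The median had the opposite sign without wild-type library 1 (0.0175) and without null library 1 (0.0106), and so did *Adora1* (0.0175 and 0.0138), which ranged from -0.105 to 0.0175. *Adrb1* ranged from -0.0923 to 0.104 and had the opposite sign without wild-type library 3 (-0.0923) and without null library 5 (-0.0603). Without null library 3, 1 member had an unadjusted p under 0.05 and in 1 member, *Rgs6*, the groups did not overlap. Without null library 4, the groups did not overlap in 1 member, *Rgs4*. In each case the library left out was the only null library of that gene within the wild-type range, so that the separation follows from leaving it out. Shares over all genes tested were worked out only with all libraries and without wild-type library 3. The causes were not tested. The other alternatives (pseudocount, voom weights, filter, scaling, gene types, moderation, thresholds, ratio of means) left each tested member's direction and side of the unadjusted threshold as reported. No paired analysis was possible because the recovered values carry no replicate numbers. Depth limits *Adra1a*, with 6 counts in all, and the table of group means limits *Rgs5* to a bound on its error.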
